A study of Rattus norvegicus with 10 samples.

Results

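The calcium/calmodulin-dependent protein kinases, or CaM kinases, were followed here through 8 genes: the 4 CaMKII genes Camk2a, Camk2b, Camk2d and Camk2g, the effector kinases Camk1 and Camk4, and the upstream kinases Camkk1 and Camkk2. They were taken by symbol from the table of read counts, and all 8 of 8 were found, on 10 transcript rows of the 14806 in the table. All 8 also passed the filter on low counts, which kept 12000 of 13670 symbols. The tissue was the left hippocampus of 10 female TgF-344AD rats, 11 months old, a Fischer strain in which the mouse prion promoter drives mutant human APP and presenilin transgenes; no wild-type animals were analysed here. The untreated group of 5 rats ate rodent chow. The other 5 rats ate chow with BT-11, a small molecule known as a binder of LANCL2, from 5 months of age for 6 months; the dose is not given in the sources used here.

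When calcium enters a neuron through NMDA receptors or voltage-gated channels it binds calmodulin, and calcium-loaded calmodulin opens the CaM kinases by pulling away their autoinhibitory segment. CaMKII is a ring of many subunits that phosphorylate one another, so that activity can outlast the calcium signal; its alpha and beta subunits are abundant in forebrain synapses and needed for long-term potentiation in the hippocampus. CaMKK1 and CaMKK2 form the top of a separate cascade, in which they phosphorylate CaMKI, which acts in the cytoplasm on the growth of neurites, and CaMKIV, which acts largely in the nucleus on CREB.

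The libraries held between 13721673 and 19700443 deposited counts each. The neuronal markers Snap25 and Slc17a7 were present in all 10 libraries (at least 1790 and 1091 CPM), and so were the dentate marker Prox1 and the CA1 marker Wfs1 measured in each (at least 43.1 and 140.5 CPM), where CPM is counts scaled to library size with TMM factors. Untreated library 4 and BT-11 library 3 stood apart in markers of choroid plexus, with 1185 and 1290 CPM summed over the 5 tested markers of 8 listed, against 4.17 to 93.0 CPM in the other 8 libraries. The smallest count behind any CaM kinase value was 189 reads, for Camk2d in BT-11 library 1, with an exact 95% Poisson interval of 163.0 to 218.0 that covers counting error only.

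No CaM kinase gene passed the test between BT-11 and untreated rats. Across all 12000 genes 0 (0%) had an adjusted p under 0.05 with edgeR's quasi-likelihood test and Benjamini-Hochberg adjustment, while 715 (5.96%) had an unadjusted p under that value. DESeq2 called 8 genes (0.0667%) and limma voom 0 (0%), and none of the 8 DESeq2 calls was a CaM kinase. The largest upward estimate among the kinases was that of Camk2a, at 1.19 times its untreated level, and the widest interval was that of Camk2d, whose level differed 4.77-fold between the highest and the lowest library.

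**Figure D1:**
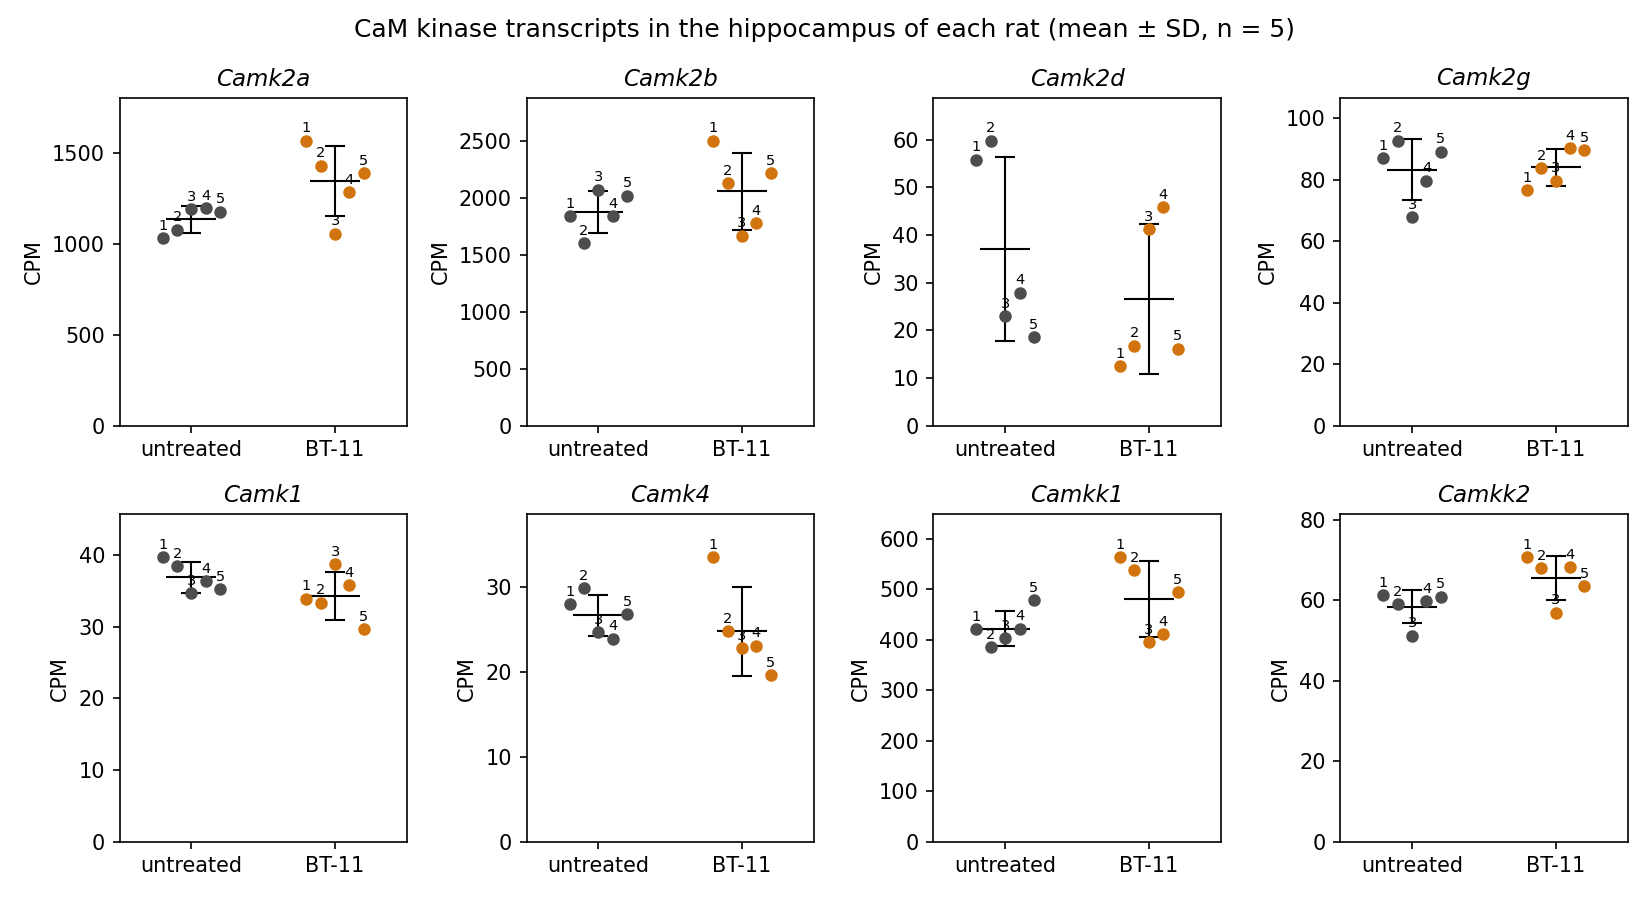
CPM of each CaM kinase gene (vertical axes from 0) in untreated and BT-11 rats, 1 numbered point per library, with the mean and SD of 5 as black lines. The groups overlap for all 8 genes, and Camk2d splits each group into high libraries (untreated 1 and 2, BT-11 3 and 4) and low ones.

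Levels of different genes can be set side by side only per length of the counted transcript row, here in CPM per kb. Camk2a, the alpha subunit of CaMKII, was highest at 760.1 ± 50.1 CPM per kb in untreated rats and 901.2 ± 128.2 with BT-11 (SD, n = 5 each). Camk2b, the beta subunit that ties the holoenzyme to actin, followed at 491.0 ± 48.3 and 538.8 ± 88.8 CPM per kb. Per length, Camk2a lay above Camk2b in 10 of 10 libraries. In CPM not divided by length the order of the means was the reverse. Camk2a averaged 1136 CPM untreated and 1346 CPM with BT-11, and Camk2b 1879 and 2062 CPM. Camkk1 came next at 123.7 ± 10.1 and 140.9 ± 21.9 CPM per kb, and then Camk2g, the gamma subunit, at 48.2 ± 5.70 and 48.6 ± 3.47. Camkk2, at 27.4 ± 1.95 and 30.7 ± 2.55 CPM per kb, and Camk1, at 25.9 ± 1.51 and 24.1 ± 2.33, were neighbours whose order changed between libraries, with Camkk2 above in 8 of 10. Camk4, at 15.2 ± 1.38 and 14.1 ± 2.99 CPM per kb, and Camk2d, at 16.1 ± 8.40 and 11.5 ± 6.83, could not be ordered either, with Camk4 above in 6 of 10. The order of the other neighbours held in 10 of 10 libraries. The Camk2a row is 1494 bases long, that of Camk2d 2301 and the Camk2b row with most counts 3845. How much untranslated sequence a row covers was not examined. Both the order of genes and the distances between them therefore depend on the gene models as well as on the RNA.

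**Figure D2:**
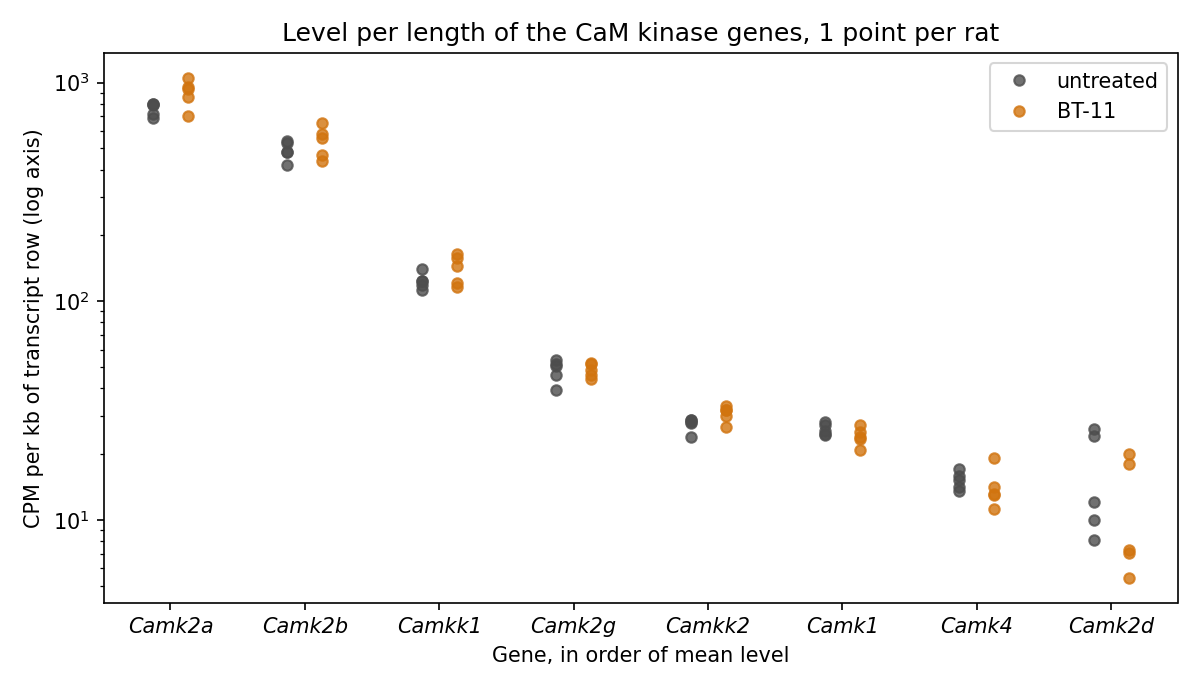
Level of the CaM kinase genes in CPM per kb of transcript row, on a log axis, with the genes in order of their mean and 1 point per rat. Camk2a and Camk2b stand above the rest, and Camk2d spreads from 5.45 to 26.0 CPM per kb while the other genes form narrow columns.

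Camk2a lies on chromosome 18 at 56193978 to 56295870 on the plus strand (rn6). In untreated libraries 1 to 5 it measured 1033, 1079, 1191, 1198 and 1178 CPM, and in BT-11 libraries 1 to 5 it measured 1569, 1432, 1056, 1284 and 1391 CPM. Of the BT-11 libraries 4 lay above every untreated library, and BT-11 library 3 lay below all but untreated library 1, so the groups overlapped. Mean CPM was 1136 ± 74.9 (SD, n = 5) without the drug and 1346 ± 191.6 (SD, n = 5) with it. The log2 fold change of 0.25 ± 0.0932 (SE) did not pass (edgeR, adjusted p = 0.809). Without BT-11 library 3 the log2 fold change was 0.33 (edgeR, adjusted p = 0.438), and without both libraries rich in choroid plexus markers, a setting chosen after seeing the data, it was 0.34 (adjusted p = 0.307).

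Camk2b lies on chromosome 14 on the minus strand and was counted on 3 rows. The row with most counts spans 86208895 to 86297653. Summed over the 3 rows, Camk2b measured 1843, 1606, 2076, 1845 and 2022 CPM in untreated libraries 1 to 5. In BT-11 libraries 1 to 5 the sum was 2506, 2132, 1670, 1780 and 2221 CPM. BT-11 libraries 1, 2 and 5 lay above every untreated library and the other pair lay in the lower part of the untreated range. Its log2 fold change was 0.13 ± 0.107 (SE), which did not pass (edgeR, adjusted p = 0.834), with a 95% interval from -0.10 to 0.37. It was 0.05 without BT-11 library 1.

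The rows of Camk2b differ in length, and the table divides the estimated counts among them. The row of 3845 bases held 83.2% ± 1.87 of the Camk2b counts in untreated rats and 84.0% ± 1.25 with BT-11 (SD, n = 5 each), and the row of 3728 bases held 16.5% ± 1.87 and 15.6% ± 1.19. The remaining row, of 3986 bases, held 0.259% to 0.492% in any library. The share of the 3728-base row was lowest in untreated library 4, at 13.3%, and in BT-11 library 3, at 13.7%, the same libraries that were rich in choroid plexus markers, against 15.2% to 18.2% elsewhere; the part of that tissue in the share was not tested. Such shares rest on how reads were divided among overlapping transcripts.

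The ratio of alpha to beta subunit transcripts bears on CaMKII because beta subunits carry the actin-binding site. Per length, the ratio of Camk2a to Camk2b was 1.44, 1.72, 1.47, 1.66 and 1.49 in untreated libraries 1 to 5 and 1.60, 1.72, 1.62, 1.85 and 1.60 in BT-11 libraries 1 to 5. The ranges overlapped, with means of 1.56 ± 0.127 and 1.68 ± 0.106 (SD, n = 5 each), and this ratio between members was given no test. Of all CaMKII transcript per length, Camk2a made up 57.8% ± 1.71 in untreated rats and 60.0% ± 1.21 with BT-11 (SD, n = 5 each). Camk2b made up 37.3% ± 2.03 and 35.8% ± 1.59, Camk2g 3.69% ± 0.597 and 3.29% ± 0.528, and Camk2d 1.26% ± 0.724 and 0.827% ± 0.577. Of CaMKII counts not divided by length, Camk2a held 36.3% untreated and 38.3% with BT-11, and Camk2b 59.8% and 58.5%. Which subunit leads thus depends on the row lengths used.

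Camk2d, the delta subunit, best known for its part in the heart and present in many tissues, lies on chromosome 2 at 230901126 to 231130337 on the plus strand. It measured 55.8, 59.8, 22.9, 27.9 and 18.6 CPM in untreated libraries 1 to 5 and 12.5, 16.8, 41.2, 45.9 and 16.2 CPM in BT-11 libraries 1 to 5. The 10 libraries fell into 4 at 41.2 CPM or more, 2 of each group, and 6 at 27.9 CPM or less, 3 of each group. Mean CPM was 37.0 ± 19.3 in the untreated and 26.5 ± 15.7 in the BT-11 group (SD, n = 5 each). A log2 fold change of -0.48 ± 0.409 (SE) did not pass (edgeR, adjusted p = 0.84). Its 95% interval ran from -1.37 to 0.40 and so included 0. Leaving out BT-11 library 4 moved the estimate to -0.78, and leaving out untreated library 2 moved it to -0.24.

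The 4 libraries with most Camk2d were the 4 with least Camk2b, at 1843, 1606, 1670 and 1780 CPM, although untreated library 4 was close to them at 1845 CPM. Camkk1 was at 421.4, 385.7, 395.7 and 411.4 CPM in these libraries, 4 of its 5 lowest. Camk1 was at 39.7, 38.4, 38.7 and 35.7 CPM in them, 4 of its 5 highest. The Spearman rank correlation between Camk2d and Camk2b over the 10 libraries was -0.94, given as a description without a test, and no Pearson's r is given for Camk2d because its libraries formed separate clusters. The 8 markers of striatum, a neighbouring region, summed to 226.1, 222.9, 192.8 and 178.3 CPM in the libraries high in Camk2d and to 142.2 to 201.5 CPM in the others. Of these markers, Drd1 and Drd2, the dopamine receptors, were above 0 in all 10. With the striatum level as a covariate, a setting chosen after seeing the data, the log2 fold change of Camk2d turned to 0.21 (adjusted p = 1) and that of Camk2b to -0.01, while Camk2a went from 0.25 to 0.12 and Camkk1 from 0.19 to 0.06. In whole tissue, fewer cells of a type and less RNA per cell cannot be told apart.

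**Figure D3:**
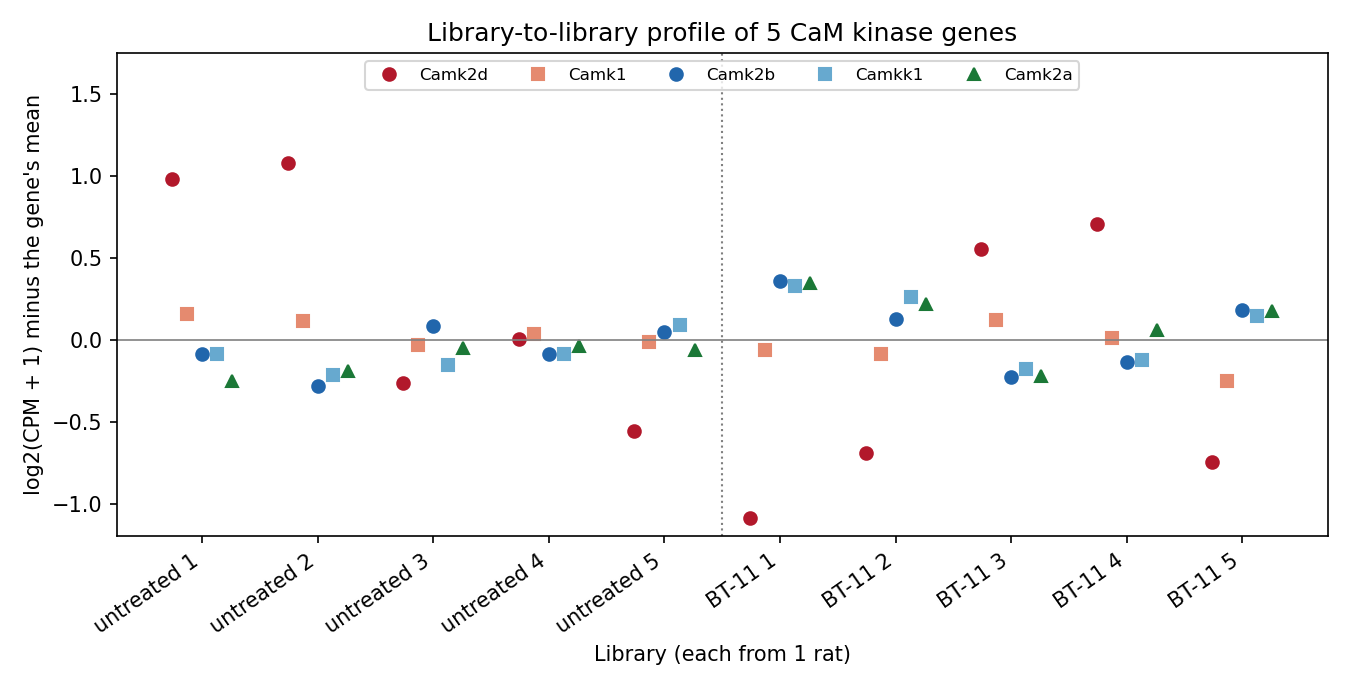
Level of 5 CaM kinase genes in each library as log2(CPM + 1) minus the gene's mean over the 10 libraries, with untreated libraries left and BT-11 libraries right of the dotted line. Camk2d is high in untreated libraries 1 and 2 and BT-11 libraries 3 and 4, where Camk2b and Camkk1 lie below their means.

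The 3 genes most like Camk2d and the 2 least like it, among 11992 searched by Pearson's r over the 10 libraries, were looked up after its values were seen. They are extremes of that search, and the clusters of Camk2d weigh on it, so only their levels are given. Ecel1, a membrane peptidase of neurons, was at 5.10, 5.07, 5.12 and 4.16 CPM in the 4 libraries high in Camk2d and at 0.729 to 2.86 CPM in the others. Rassf5, a Ras-binding protein, was at 35.2, 36.8, 24.1 and 25.3 CPM against 9.68 to 20.2 CPM. Dpt, the matrix protein dermatopontin, was at 2.31, 3.34, 1.64 and 2.30 CPM against 0 to 1.01 CPM. Cdc40, a splicing factor, went the other way, at 73.5, 65.1, 76.0 and 71.8 CPM against 90.6 to 125.9 CPM, as did Ksr1, a scaffold of the Raf and MEK kinases, at 72.3, 69.1, 87.3 and 83.1 CPM against 98.8 to 120.0 CPM.

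Camk2d moved against Camk2b and Camkk1 from library to library, and the 250 bases before the start site of these 3 genes are shown. They are as RefSeq gives them for GRCr8, a later build than that of the count table. The part of these sequences in the library profiles was not tested. Of the 8 genes 7 were in the RefSeq promoter table. The window of Camk2d is chr2:217698301-217698550 (plus strand), that of Camk2b chr14:85147945-85148194 (minus strand) and that of Camkk1 chr10:58135685-58135934 (plus strand). Capitals mark the GC box GGGCGG on either strand, a site known to bind Sp-family factors; neighbouring boxes may overlap.
Camk2d: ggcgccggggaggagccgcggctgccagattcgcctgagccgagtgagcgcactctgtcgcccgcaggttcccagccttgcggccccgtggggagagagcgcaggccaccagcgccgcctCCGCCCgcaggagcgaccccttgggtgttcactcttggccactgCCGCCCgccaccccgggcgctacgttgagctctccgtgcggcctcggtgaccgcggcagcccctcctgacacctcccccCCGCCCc
Camk2b: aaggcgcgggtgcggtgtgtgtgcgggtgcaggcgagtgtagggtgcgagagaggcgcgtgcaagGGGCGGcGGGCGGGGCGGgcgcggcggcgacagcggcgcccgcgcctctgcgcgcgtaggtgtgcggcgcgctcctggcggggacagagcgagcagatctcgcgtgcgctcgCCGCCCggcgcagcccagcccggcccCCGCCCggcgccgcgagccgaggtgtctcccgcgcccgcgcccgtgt
Camkk1: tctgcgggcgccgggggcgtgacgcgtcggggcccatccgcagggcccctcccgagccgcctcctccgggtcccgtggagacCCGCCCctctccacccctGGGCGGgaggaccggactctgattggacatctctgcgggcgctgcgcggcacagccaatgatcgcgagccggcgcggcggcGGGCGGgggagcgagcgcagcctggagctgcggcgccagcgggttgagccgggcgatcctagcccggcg
All 3 windows were rich in G and C, at 75.2%, 80.4% and 77.6%, where the median over 33469 rat promoter windows of the same length was 51.2%. Of the other members, Camk2g had 80.8% G and C and 7 matches to the GC box, while Camk2a, whose profile was like that of Camk2b, had 60.4% and 0 matches. Camk2d held 3 matches to the GC box, Camk2b 5 and Camkk1 3, and 30.5% of all windows held at least 1. The CRE half-site TGACG, searched on both strands, had 1 match in Camkk1 and 0 in Camk2d and Camk2b. Among the other members Camk2a had 2 matches, Camk1 had 1, and Camk2g and Camk4 had 0. Of all windows 18.2% held this half-site. No TATA box (TATAAA, both strands) was found in the 3 windows, against 12.9% of all windows with a match.

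Camk2g (chromosome 15, 3936786 to 3993869, plus strand) measured 87.0, 92.6, 67.8, 79.6 and 89.1 CPM in untreated libraries 1 to 5 and 76.5, 83.8, 79.7, 90.3 and 89.5 CPM in BT-11 libraries 1 to 5. The BT-11 libraries lay within the untreated range. The log2 fold change was 0.01 ± 0.0845 (SE; edgeR, adjusted p = 0.989), with a 95% interval from -0.17 to 0.19. Its sign turned with several settings.

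The upstream kinases both had estimates above 0. Camkk2, which also phosphorylates the energy sensor AMPK, lies on chromosome 12 at 39253409 to 39302602 (plus strand). It measured 61.3, 59.1, 51.2, 59.7 and 60.9 CPM in untreated libraries 1 to 5 and 70.8, 68.0, 56.9, 68.2 and 63.5 CPM in BT-11 libraries 1 to 5. As with Camk2a, 4 BT-11 libraries lay above every untreated library and BT-11 library 3 lay lower. Its log2 fold change was 0.16 ± 0.0725 (SE) and did not pass (edgeR, adjusted p = 0.809). The estimate was 0.12 without untreated library 3.

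Camkk1 (chromosome 10, 59585092 to 59608168, plus strand) measured 421.4, 385.7, 402.8, 422.0 and 477.6 CPM in untreated libraries 1 to 5 and 563.6, 537.9, 395.7, 411.4 and 494.5 CPM in BT-11 libraries 1 to 5. BT-11 libraries 1, 2 and 5 were above all untreated libraries, as for Camk2b. Camkk1 had a log2 fold change of 0.19 ± 0.102 (SE; edgeR, adjusted p = 0.809). Per length, Camkk1 stood at 4.52 ± 0.373 times Camkk2 in untreated rats and 4.58 ± 0.52 times with BT-11 (SD, n = 5 each), a ratio that was not tested.

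The downstream kinases Camk1 and Camk4 both had estimates below 0. Camk1 (chromosome 4, 145289300 to 145299603, minus strand) measured 39.7, 38.4, 34.7, 36.3 and 35.2 CPM in untreated libraries 1 to 5 and 33.9, 33.3, 38.7, 35.7 and 29.7 CPM in BT-11 libraries 1 to 5. BT-11 libraries 1, 2 and 5 lay below every untreated library, the same 3 that were above all untreated libraries in Camk2b and Camkk1. Camk1 had a log2 fold change of -0.11 ± 0.0752 (SE; edgeR, adjusted p = 0.819). Camk4 (chromosome 18, 25749104 to 25965919, plus strand) measured 28.0, 29.9, 24.7, 23.9 and 26.8 CPM in untreated libraries 1 to 5 and 33.6, 24.8, 22.9, 23.1 and 19.6 CPM in BT-11 libraries 1 to 5. BT-11 library 1 was the highest of all 10 and BT-11 library 5 the lowest. The log2 fold change of Camk4 was -0.11 ± 0.125 (SE; edgeR, adjusted p = 0.877), and it was -0.24 without BT-11 library 1 and -0.03 without BT-11 library 5.

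**Figure D4:**
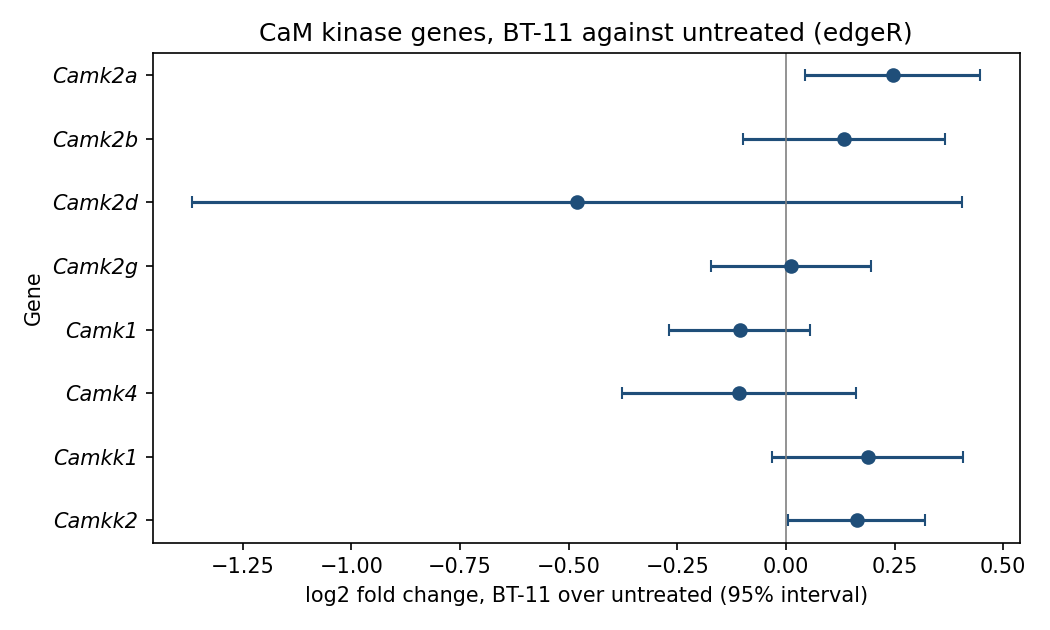
Log2 fold change of each CaM kinase gene, BT-11 over untreated, from edgeR, with its 95% interval before adjustment for the number of genes. The intervals of Camk2a and Camkk2 lie above 0, those of the other 6 genes include 0, and none of the 8 passed an adjusted p of 0.05.

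Of the 8 genes 2, Camk2a and Camkk2, had an unadjusted p under 0.05, both as higher, where 2.53% of all genes did so as higher; the genes were chosen with earlier results of these data known, so the count supports nothing by itself. The median log2 fold change was 0.07 over the 8 genes and -0.000157 over all 12000. Markers of neurons in general had estimates above 0 in 7 of 8 cases, the direction of Camk2a and Camkk2. The markers summed to 4824 to 6723 CPM in untreated libraries and 6309 to 7639 CPM with BT-11. No correlation between the level of these markers and the kinases over single libraries was computed. Markers of myelin had estimates in the other direction, with 12 of 12 below 0. They summed to 9010 to 16801 CPM in untreated libraries and 6633 to 9764 CPM with BT-11. The 16801 CPM was that of untreated library 3, and the next highest untreated sum was 10534 CPM. Once the myelin level entered the fit as a covariate, Camk2a had a log2 fold change of 0.11 ± 0.132 (SE). Camkk1 and Camkk2 had -0.05 ± 0.129 and -0.01 ± 0.0851 (SE). That level, a mean of log2(CPM + 1), was 7.85 to 8.41 in untreated libraries and 7.33 to 7.88 with BT-11. It nearly separated the groups, so its part and that of the drug cannot be told apart in this fit. The level of general neuron markers was also used as a covariate, chosen after seeing the data. With it the log2 fold change was 0.18 for Camk2a, 0.06 for Camkk1 and 0.06 for Camkk2. Of the excitatory neuron markers 4 of 7 were above 0, with sums of 2393 to 3362 CPM in untreated libraries and 3112 to 3947 CPM with BT-11, and their mean on the log2(CPM + 1) scale was 6.92 to 7.12 and 6.88 to 7.18. Camk2a had a log2 fold change of 0.24 with that mean as a covariate, and the summed level was not tried as one. Other neuronal lists went different ways. Interneuron markers were below 0 in 10 of 10 cases (median -0.20; sums of 574.6 to 845.1 CPM untreated and 605.8 to 799.5 CPM with BT-11) and CA1 markers in 4 of 5 (699.3 to 1199 and 611.1 to 1074 CPM). CA3 and CA2 markers were above 0 in 6 of 7 cases (median 0.31; 431.3 to 727.9 and 627.3 to 857.3 CPM). The part of these 3 lists in the kinase values was not tested.

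Among the members not counting Camk2d, Camk2a, Camk2b and Camkk1 had the most alike profiles over the 10 libraries. Pearson's r of log2(CPM + 1) was 0.84 between Camk2a and Camk2b, 0.85 between Camk2a and Camkk1 and 0.87 between Camk2b and Camkk1, and with the group means removed it was 0.85, 0.80 and 0.86. Camk1 ran against Camk2a (r = -0.80) and against Camk2b (r = -0.75). Camk4 went with neither, at 0.03 and 0.14. These are descriptions without a test, over libraries that also share their tissue makeup.

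Among the 11992 other genes, those most like Camk2a over the 10 libraries were Uxs1, which makes the sugar donor UDP-xylose, Epn2, an endocytic epsin, and Dpy19l3, a mannosyltransferase, with r of 0.97, 0.97 and 0.94. The least like it were LOC102548847 and the amino acid transporter Slc7a3 (both -0.95). For Camk2b the most alike were the myristoyltransferase Nmt1, the depalmitoylase Abhd17c and Mllt10, a chromatin protein (0.97, 0.97 and 0.96), and the least alike Sema6a, a semaphorin, and the transporter Slc7a8 (-0.95 and -0.94). For Camk4 the most alike were Arhgap10, a GTPase-activating protein, the kinase Nlk and the adhesion protein Lingo2 (0.93, 0.89 and 0.88), and the least alike the DNA repair protein Mgmt and the adaptor Dok1 (-0.92 and -0.90). Each is the extreme of 11992 values over 10 libraries, and no p is given.

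The rest of the pathway was followed in 7 lists of 64 genes, of which 63 were tested and 0 passed an adjusted p of 0.05 with edgeR. Of the 63, 45 had estimates above 0, where 5994 of all 12000 genes did, and the median log2 fold change was 0.05. The part of tissue makeup in these counts was not tested. Of the tested list genes, 7 were higher and 1 lower at an unadjusted p under 0.05, where 2.53% of all genes were higher and 3.42% lower at that level. The lists were chosen with earlier results of these data known, so these counts support nothing by themselves. Mef2c was not in the table.

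Among the calmodulin genes, Calm2 had a log2 fold change of 0.08 and Calm3 one of 0.05. Neither passed, with adjusted p of 0.837 and 0.895 (edgeR).

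Both genes of the small CaMKII inhibitor proteins were below 0 and neither passed. Camk2n1 was at 143.1 to 224.8 CPM in untreated libraries and 156.0 to 206.7 CPM with BT-11, with a log2 fold change of -0.14 ± 0.135 (SE; edgeR, adjusted p = 0.847). Camk2n2 averaged 8.68 ± 1.66 CPM untreated and 8.33 ± 2.59 CPM treated (SD, n = 5 each), with a log2 fold change of -0.06 (adjusted p = 0.971).

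Among partners and substrates of CaMKII at the synapse 15 of 16 had estimates above 0, where 5994 of all 12000 genes did. Their median log2 fold change was 0.14, and 0 passed. The list was chosen with earlier results of these data known. Markers of neurons in general were above 0 in 7 of 8 cases, with a median of 0.19, and interneuron markers in 0 of 10. The part of tissue makeup in the values of this list was not tested. Abi1, an actin regulator, had a log2 fold change of 0.30 and Shank3, a scaffold of the postsynaptic density, one of 0.17, each with an adjusted p of 0.809 (edgeR).

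The lists of other kinases and phosphatases were split more evenly. In the list of further calmodulin-regulated and CaM-kinase-like kinases 7 of 11 were above 0, with a median of 0.03. Camk1d, a CaMKI of the same cascade, measured 183.5 ± 35.5 CPM and 232.7 ± 42.9 CPM (SD, n = 5 each), a log2 fold change of 0.34 ± 0.144 (SE; edgeR, adjusted p = 0.809), while Mylk, myosin light chain kinase, and Dclk1, a doublecortin-like kinase, were at 0.13 and -0.13. In the list of calcineurin and CaM kinase phosphatases 5 of 8 were above 0, with a median of 0.17. Calcineurin is the calmodulin-activated phosphatase that opposes CaMKII at synapses; its subunits Ppp3r1 and Ppp3cb had log2 fold changes of 0.23 and 0.22 and Ppp1cc, a catalytic subunit of protein phosphatase 1, one of 0.14 (edgeR, adjusted p from 0.809 to 0.812).

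Among calmodulin-binding proteins and calcium sensors 5 of 9 were above 0, with a median of 0.01. Rcan2, a regulator that binds calcineurin, was the only gene named from the 7 lists whose groups did not overlap, at 199.8 to 250.5 CPM in untreated libraries and 158.7 to 195.3 CPM with BT-11. Its log2 fold change was -0.33 ± 0.0788 (SE) and did not pass (edgeR, adjusted p = 0.8), and 0.542% of all genes had BT-11 libraries that all lay below the untreated ones. Ncs1, a calcium sensor of synapses, and Pcp4, which speeds the exchange of calcium on calmodulin, had log2 fold changes of 0.14 and -0.13.

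Of the substrates and nuclear effectors of the CaMKK, CaMKI and CaMKIV branch 10 of 14 were above 0, with a median of 0.02. Mef2a, a transcription factor freed when class II histone deacetylases are phosphorylated, measured 73.2 ± 14.2 CPM and 91.0 ± 12.6 CPM (SD, n = 5 each), a log2 fold change of 0.31 ± 0.13 (SE; edgeR, adjusted p = 0.809). Crtc1, a coactivator of CREB, and Prkaa1, the AMPK subunit phosphorylated by CaMKK2, had log2 fold changes of 0.18 and 0.19 and did not pass either.

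**Figure D5:**
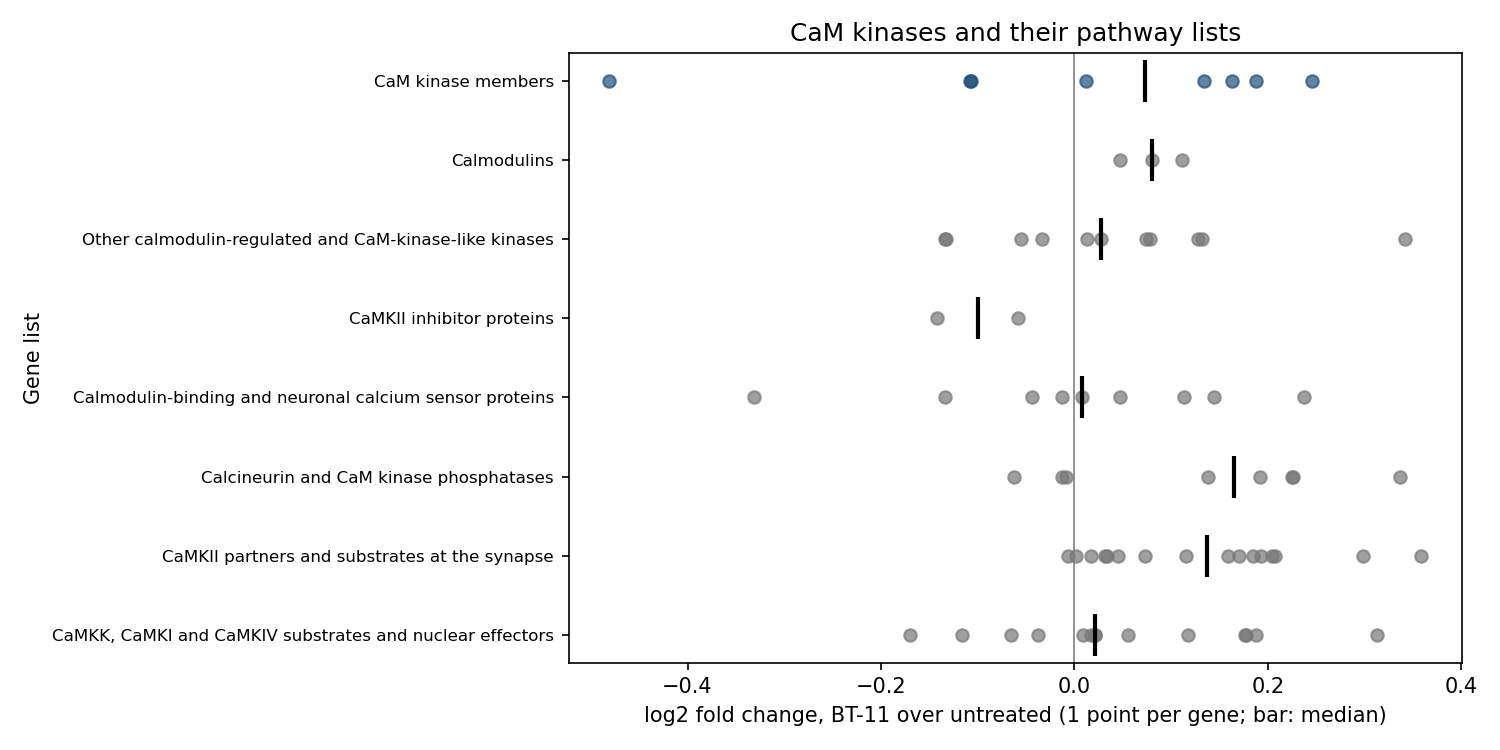
Log2 fold change, BT-11 over untreated, of the 8 CaM kinases and of the tested genes of 7 pathway lists, 1 point per gene, with a bar at each list's median. The synaptic partners of CaMKII lie above 0 in 15 of 16 cases, against 5994 of all 12000 genes. The lists were chosen with earlier results of these data known. No point in the plot passed an adjusted p of 0.05.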

How the data were processed

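Libraries of 10 left hippocampi were strand-specific mRNA libraries sequenced in pairs of 50 bases, per the labels' protocols. Per the submitters' processing notes, the tools were STAR 2.7.9a, Partek and DESeq2, with rn6 as the build; what each did, the counting program and its strand setting are not stated there. Deposited by the authors were estimated counts (expected counts) of each transcript row, 85.4% of them whole within 1e-06, and a second table in which the deposited normalized signal is each library's counts times 1 factor, from 0.822 to 1.15. The transcript length of each row is that of the deposited table. Every library is labelled as a separate rat.

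Rows were summed by symbol, rounded, and filtered with filterByExpr. The design had assumed whole counts. Libraries were scaled by TMM and tested with edgeR 4.0.16 (quasi-likelihood, two-sided, no covariate, Benjamini-Hochberg over 12000 genes, threshold 0.05). DESeq2 1.42.0, limma 3.58.1 (R 4.3.3), other scalings, no filter, covariates, a replicate block and leaving out each library were alternatives. The procedure was tested on simulated data. Levels per length sum counts per kb over rows. The members and lists were chosen with earlier results of these data known. Named were all 8 members, up to 3 genes per list with the smallest p (a few that this rule selects are not reported here, but stay in the counts), and for Camk2a, Camk2b and Camk4 the 3 most and 2 least alike genes; the same was done for Camk2d after its values were seen (log2 with a pseudocount of 1).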

Additional observations from a re-analysis of the deposited data

Results flagged for a closer look

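Camkk2 in untreated library 3 stood apart from its group, at 51.2 CPM while the 4 remaining rats of that group had 59.1 to 61.3 CPM. It was the only one of 32 groups of 5 values checked in which 1 library lay so far from the rest, and chance flags about 1 group in 20.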

How the results depend on the processing

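Of 192 recomputed log2 fold changes of the 8 genes under 24 alternatives, 181 kept their sign, and none passed an adjusted p of 0.05. 3 of the alternatives were chosen after seeing the data: leaving out both choroid-rich libraries, and the striatum and general neuron levels as covariates. The sign of Camk2g, near 0, turned with upper-quartile scaling (-0.00167), the myelin level (-0.0579) and the general neuron level (-0.0577) as covariates and without untreated library 3, 4 or BT-11 library 4 or 5. Leaving out 1 library gave log2 fold changes from 0.18 to 0.33 for Camk2a, 0.05 to 0.21 for Camk2b, -0.78 to -0.24 for Camk2d, -0.0558 to 0.0524 for Camk2g, -0.15 to -0.06 for Camk1, -0.24 to -0.03 for Camk4, 0.12 to 0.25 for Camkk1 and 0.12 to 0.21 for Camkk2. With the myelin level Camkk1 turned to -0.0451 and Camkk2 to -0.0122, and with the striatum level Camk2b turned to -0.00835 and Camk2d to 0.21; the cause was not tested. The count of genes past the threshold was 8 with DESeq2 and 0 otherwise. Deviations of same-numbered libraries from their group means had correlations from -0.353 to 0.121. Differently numbered libraries were not compared, so these values cannot exclude a pairing. With the number as a replicate block 0 genes passed and Camk2a had a log2 fold change of 0.24. The difference in the log2 ratio of Camk2a to Camk2b was 0.11, and 0.08 to 0.15 without 1 library. Groups of 5 limit what could be seen.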
